A study of Mus musculus with 12 samples.

Results

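The transcription factor NRF2 drives a shared set of detoxifying and antioxidant genes, and 10 genes of this kind were followed among the 40760 genes counted in sorted mouse lung cells. They were chosen by gene name as NRF2 targets and antioxidant enzymes, namely *Slc7a11*, *Gclc*, *Gclm*, *Gsr*, *Txnrd1*, *Srxn1*, *Nqo1*, *Hmox1*, *Sod2* and *Sod3*. All 10 passed the filter on low counts, which left 17418 genes to test. RNA was sequenced from Pdgfra+ cells (also called CD140a+, after the receptor that marks lung fibroblasts), sorted from the lungs of adult male mice of C57BL/6 background in 12 libraries, 3 for each of 4 groups. WT vehicle and WT bleo came from wild-type mice given vehicle or bleomycin (bleo), a drug that injures the lung and is followed by fibrosis. Pear1-/- vehicle and Pear1-/- bleo came from mice labelled as deficient in *Pear1*, a membrane receptor, given the same treatments, and the study asked how *Pear1* deficiency changes the response of these cells to bleo. The mutant carried a knockout-first allele in every cell, in which an inserted cassette is meant to trap and truncate the transcript. The study's methods describe more than one bleo dose and a day of analysis for the fibrosis model, but which of these applied to the sorted cells, and how many mice stand behind a library, is not given in the sources used here, so the p-values measure the spread between libraries, which may be technical.

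NRF2, encoded by *Nfe2l2*, is held in the cytoplasm by KEAP1, which hands it to a CUL3 ubiquitin ligase for degradation. Oxidants and electrophiles modify KEAP1, so that NRF2 accumulates, pairs with a small MAF protein and binds antioxidant response elements, while BACH1 represses many of the same genes. The targets import cystine, make and recycle glutathione, keep thioredoxins and peroxiredoxins reduced, and break down quinones and haem. Superoxide dismutases act one step earlier by turning superoxide into hydrogen peroxide, *Sod2* in mitochondria and *Sod3* in the extracellular matrix, where the lung is rich in it.

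Promoters of 6 of the 10 genes (8 promoters) were found in the RefSeq set for GRCm38.p6, each covering 250 bases before to 50 after a transcription start, and *Hmox1*, *Gclc*, *Gsr* and *Sod3* had no entry. Each was searched on both strands for the core of the antioxidant response element, TGACNNNGC, for the AP-1 site TGACTCA and for TGATGNAA, the core of the amino acid response element bound by ATF4. The 4 promoters that held a match and that of *Nqo1*, the only one of the 10 genes over 2-fold apart between the bleo groups, are printed because the genes they belong to did not move together. Matches are in capitals and can stand on either strand. The promoters are those of *Srxn1* at chr2:152105274-152105573 on the plus strand, *Gclm* at chr3:122245307-122245606 on the plus strand, *Txnrd1* at chr10:82858956-82859255 on the plus strand (the middle of its 3 starts), *Slc7a11* at chr3:50443564-50443863 on the minus strand and *Nqo1* at chr8:107403156-107403455 on the minus strand.
Srxn1: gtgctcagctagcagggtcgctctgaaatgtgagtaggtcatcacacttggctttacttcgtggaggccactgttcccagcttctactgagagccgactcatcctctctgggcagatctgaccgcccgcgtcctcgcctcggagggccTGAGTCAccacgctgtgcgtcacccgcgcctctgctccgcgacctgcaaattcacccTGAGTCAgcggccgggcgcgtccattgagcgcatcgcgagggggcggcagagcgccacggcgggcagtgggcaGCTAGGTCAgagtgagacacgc
Gclm: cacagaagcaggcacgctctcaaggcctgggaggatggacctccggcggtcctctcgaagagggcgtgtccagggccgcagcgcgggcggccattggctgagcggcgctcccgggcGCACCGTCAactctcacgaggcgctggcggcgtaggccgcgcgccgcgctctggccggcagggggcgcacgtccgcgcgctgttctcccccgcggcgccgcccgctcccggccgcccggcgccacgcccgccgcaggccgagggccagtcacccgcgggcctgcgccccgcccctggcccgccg
Txnrd1: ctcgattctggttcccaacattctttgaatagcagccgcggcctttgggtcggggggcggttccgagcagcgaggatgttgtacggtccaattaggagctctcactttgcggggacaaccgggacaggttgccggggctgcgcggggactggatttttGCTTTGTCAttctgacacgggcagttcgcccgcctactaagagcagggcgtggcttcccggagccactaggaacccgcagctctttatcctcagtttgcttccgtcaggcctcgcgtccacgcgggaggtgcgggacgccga
Slc7a11: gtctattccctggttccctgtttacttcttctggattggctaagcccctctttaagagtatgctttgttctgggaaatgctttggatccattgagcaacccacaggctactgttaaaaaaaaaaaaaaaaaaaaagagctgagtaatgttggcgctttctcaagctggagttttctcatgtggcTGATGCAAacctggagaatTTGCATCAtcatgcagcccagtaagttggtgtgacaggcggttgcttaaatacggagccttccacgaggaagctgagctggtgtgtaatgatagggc
Nqo1: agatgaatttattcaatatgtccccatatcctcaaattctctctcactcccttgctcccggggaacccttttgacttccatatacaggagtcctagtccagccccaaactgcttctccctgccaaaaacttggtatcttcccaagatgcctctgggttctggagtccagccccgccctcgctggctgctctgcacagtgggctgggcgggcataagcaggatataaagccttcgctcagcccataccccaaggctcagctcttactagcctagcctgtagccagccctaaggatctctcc
The response element core lay 134 bases before the start of *Gclm*, 92 bases before that start of *Txnrd1* and at base 29 after the start of *Srxn1*, counted to the leftmost base of the match. *Srxn1* also held AP-1 sites 102 and 45 bases before its start, and *Slc7a11* held the amino acid response element core 66 and 47 bases before its start, in opposite directions. The *Srxn1* site at 45 bases is followed by GC and reads TGAGTCAGC, the searched response element core but for a G in place of its first C. Forms of the core with that G were not searched. No match was found in the windows of *Nqo1*, *Sod2* or the other starts of *Txnrd1*. Among all 32851 promoters of the set, 12.4% held TGACNNNGC, 5.20% held TGACTCA and 3.97% held TGATGNAA, and no match overlapped another in the promoters printed. These are matches of letters, not measured binding.

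Between 6702948 and 10447101 reads were counted per library, and a floor of 3 counts corresponded to 0.287 to 0.448 CPM (counts scaled to library totals, counting error only). Genes with any count numbered 35472 and 35884 in WT vehicle replicates 1 and 3, 29845 in replicate 2 and 27702 to 29425 in Pear1-/- vehicle. They numbered 22106 to 22422 in WT bleo and 21621 to 21954 in Pear1-/- bleo. Mitochondrial genes took 2.96% to 3.70% of counts in the vehicle libraries, 3.13% to 3.28% in WT bleo and 2.11% to 2.29% in Pear1-/- bleo. The targeted gene did not separate the vehicle groups, since *Pear1* had a mean of 547 normalized counts in WT vehicle and 519.7 in Pear1-/- vehicle (log2 fold change -0.08, SE 0.07, adjusted p = 0.47), and it was higher in Pear1-/- bleo than in WT bleo (0.48, adjusted p = 0.00012). RNA counts per gene do not tell whether the protein was lost. The study examined PEAR1 protein by flow cytometry in cultured lung fibroblasts of both genotypes. Genotype here means the deposited label of a library throughout. WT vehicle replicate 2 stood apart from its group. The chi-square of its counts per degree of freedom was 25.2 and 26.0 against WT vehicle replicates 1 and 3, but 1.81 to 2.92 against the 3 libraries labelled Pear1-/- vehicle, where 1 is counting noise alone, and within the other groups it was 1.37 to 5.46. Its label was kept, and values without it are given for the 10 genes, the regulators and the pathway genes as 1 set. Where it is used as the lone WT vehicle library, its own group gives no spread, and the p-values assume that it varies like the libraries of the other 3 groups. The sorted cells carried their marker *Pdgfra* in all 12 libraries, at 4195 to 4802 normalized counts in WT vehicle, 4125 to 4203 in Pear1-/- vehicle, 1338 to 1394 in WT bleo and 2369.9 to 2403 in Pear1-/- bleo. Markers of other cells were present too. In a bulk library, fewer cells of a type and less RNA per cell cannot be told apart.

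In WT bleo against WT vehicle, 5 of the 10 genes rose, *Hmox1*, *Gclc*, *Txnrd1*, *Srxn1* and *Sod2*, and 3 fell, *Nqo1*, *Gsr* and *Sod3*, where rose and fell mean an adjusted p under 0.05. Among all genes tested 31.4% passed higher and 36.6% lower, so a gene of this experiment passed more often than not. The median log2 fold change of the 10 genes was 0.21, beside -0.07 over all genes. Only *Sod3* also passed 2-fold, where 33.9% of all genes did. In the libraries labelled Pear1-/-, bleo raised *Hmox1* and *Sod2* and lowered *Slc7a11*, *Srxn1*, *Gsr* and *Sod3*, 2 and 4 genes beside 28.9% and 33.4% of all genes, with a median of -0.19 beside -0.05, and again only *Sod3* passed 2-fold, as 27.8% of all genes did. Between the bleo groups, 3 genes were higher in Pear1-/- bleo (*Nqo1*, *Gsr* and *Sod2*) and 3 lower (*Gclc*, *Srxn1* and *Slc7a11*), beside 22.1% and 23.9% of all genes, with a median of -0.06 beside -0.01, and only *Nqo1* passed 2-fold, beside 15% of all genes. None of the 10 passed between the vehicle groups in edgeR's test, where 5 had an unadjusted p under 0.05 and DESeq2 also passed 0, and where 0.855% of all genes passed higher, 3.65% lower and 2.36% with over 2-fold. The plot of log2 fold changes gives all 10 genes side by side.

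**Figure D1:**
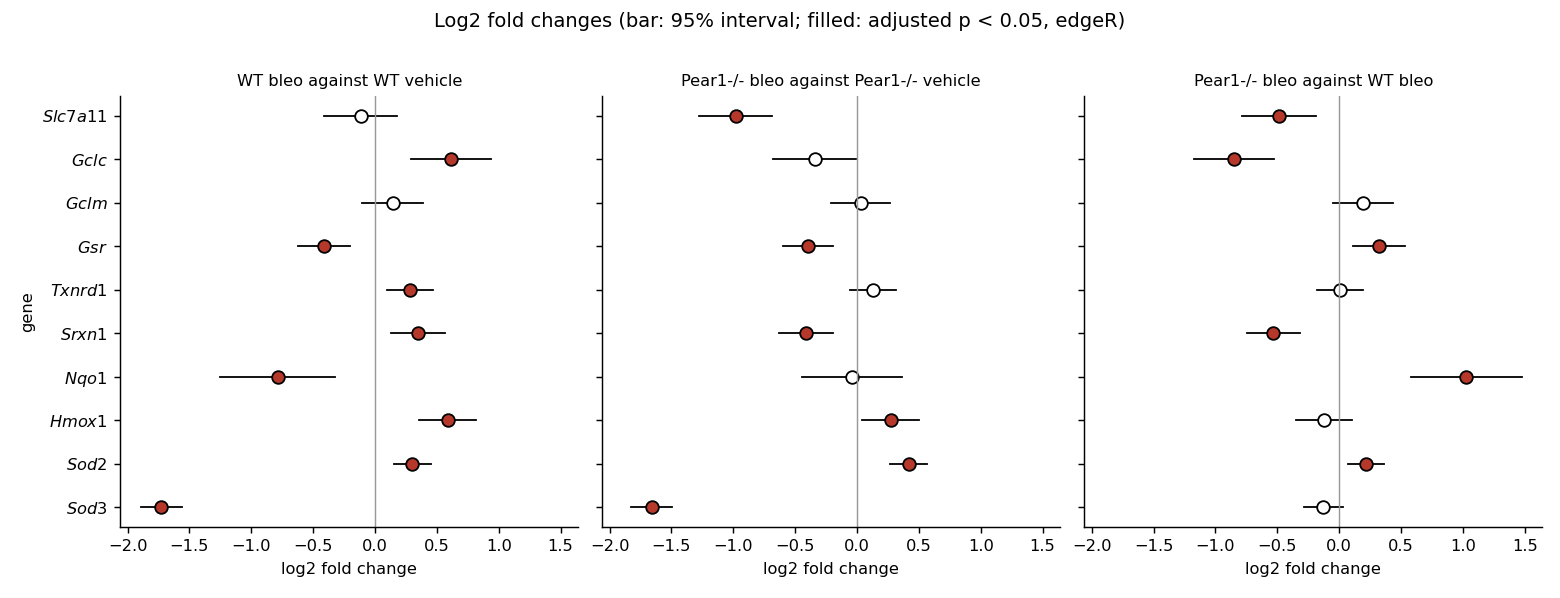
Log2 fold change of each of the 10 genes (horizontal axis) in WT bleo against WT vehicle, in Pear1-/- bleo against Pear1-/- vehicle and in Pear1-/- bleo against WT bleo; bars are 95% intervals and filled points have an adjusted p under 0.05 in edgeR's test. Sod3 lies farthest left in both comparisons of bleo with vehicle, at -1.73 and -1.66, and Nqo1 farthest right between the bleo groups, at 1.03.

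The glutathione branch begins with *Slc7a11* (ENSMUSG00000027737, GRCm38 chr3:49892526-50443614, minus strand), the cystine importer xCT. In replicates 1, 2 and 3, it had 494, 764 and 513 normalized counts in WT vehicle, 759, 833 and 724 in Pear1-/- vehicle, 574, 552 and 499 in WT bleo and 384, 387 and 398 in Pear1-/- bleo. The 3 libraries of Pear1-/- bleo were below all 9 others, while WT vehicle overlapped both WT bleo and Pear1-/- vehicle. *Slc7a11* fell 1.98-fold with bleo in the libraries labelled Pear1-/- (log2 fold change -0.98, SE 0.13, adjusted p = 9.74e-06). In WT it gave -0.12 (adjusted p = 0.44), a value that turned to 0.18 (adjusted p = 0.0353) without WT vehicle replicate 2 and to -0.48 (adjusted p = 4.86e-05) with that library as the lone WT vehicle library. Between the bleo groups it was 0.49 lower on the log2 scale in Pear1-/- (-0.49, SE 0.13, adjusted p = 0.00617).

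*Gclc* (ENSMUSG00000032350, chr9:77754535-77794485, plus strand) encodes the catalytic subunit of glutamate-cysteine ligase, the enzyme that sets the rate of glutathione synthesis. It had 94.6, 124 and 96.2 normalized counts in WT vehicle, 113, 128 and 100.4 in Pear1-/- vehicle, 147, 186 and 148 in WT bleo and 82.6, 89.4 and 97.2 in Pear1-/- bleo. All 3 WT bleo libraries were above the 9 others, and Pear1-/- bleo overlapped only the 2 lower libraries of WT vehicle. *Gclc* rose 1.53-fold with bleo in WT (0.61, SE 0.14, adjusted p = 0.00129), and by 0.38 (adjusted p = 0.053) where WT vehicle replicate 2 was the lone WT vehicle library. With bleo in Pear1-/- it gave -0.34 (SE 0.15, adjusted p = 0.0516). It was 1.80-fold lower in Pear1-/- bleo than in WT bleo (-0.85, SE 0.14, adjusted p = 0.000153).

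The other subunit of the ligase, the modifier *Gclm* (ENSMUSG00000028124, chr3:122245557-122270732, plus strand), passed in no comparison. Its normalized counts were 301, 375 and 278 in WT vehicle, 402, 437 and 346 in Pear1-/- vehicle, 360.0, 329 and 357 in WT bleo and 407, 395 and 407 in Pear1-/- bleo. WT bleo lay inside the range of WT vehicle and below Pear1-/- bleo. The differences were 0.14 with bleo in WT (95% interval -0.11 to 0.39), 0.03 with bleo in Pear1-/- (-0.21 to 0.27) and 0.19 between the bleo groups (-0.05 to 0.43). Per kilobase of exon, *Gclm* was at 55.5 ± 2.70 (SD, n = 3) and *Gclc* at 42.5 ± 5.86 in WT bleo, and at 64.0 ± 1.13 and 23.8 ± 1.95 in Pear1-/- bleo. *Gclm* shares exon bases with an antisense transcript and a pseudogene, and whether the counting used strand is not given in the sources used here.

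*Gsr* (ENSMUSG00000031584, chr8:33652523-33698163, plus strand), the reductase that returns oxidized glutathione to its reduced form, fell with bleo under both labels. It had 451, 574 and 473 normalized counts in WT vehicle and 369, 389 and 359 in WT bleo, and 608, 652 and 596 in Pear1-/- vehicle against 449, 451 and 508 in Pear1-/- bleo. Bleo libraries were below the vehicle libraries of the same label in each case. The log2 fold changes were -0.41 (SE 0.09, adjusted p = 0.000907) and -0.40 (SE 0.09, adjusted p = 0.00121). *Gsr* was 0.32 higher in Pear1-/- bleo than in WT bleo (SE 0.09, adjusted p = 0.00887), a call lost without WT bleo replicate 1 (adjusted p = 0.0715), WT bleo replicate 3 (0.0856) or Pear1-/- bleo replicate 3 (0.11).

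**Figure D2:**
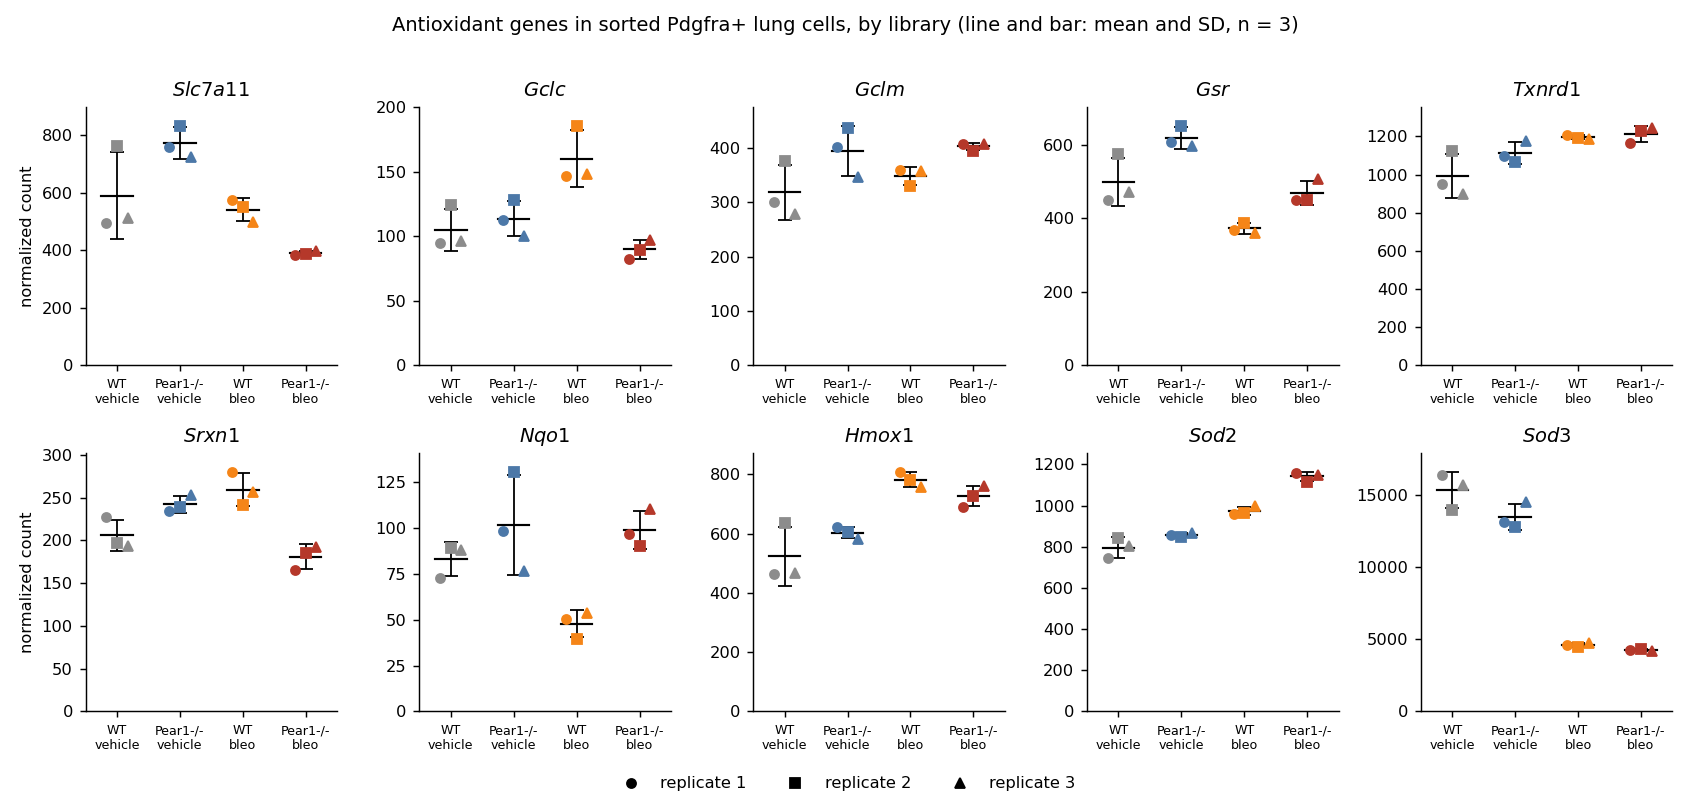
Normalized counts (vertical axis of each panel, from 0) of the 10 genes in the 12 libraries; symbols mark replicates 1, 2 and 3 of each group, and the line and bar are the mean and SD of 3 libraries. WT vehicle replicate 2 sits at 764 for Slc7a11 and 637 for Hmox1, above the other WT vehicle libraries, and the 3 libraries of Pear1-/- bleo are the lowest for Slc7a11.

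Thioredoxin and peroxiredoxin repair was represented by *Txnrd1* and *Srxn1*. *Txnrd1* (ENSMUSG00000020250, chr10:82833951-82897712, plus strand), the cytosolic reductase of thioredoxin, had 952, 1122 and 899.8 normalized counts in WT vehicle, 1097, 1067 and 1174 in Pear1-/- vehicle, 1207, 1192 and 1189 in WT bleo and 1165, 1229 and 1246 in Pear1-/- bleo. The WT bleo libraries were above those of WT vehicle and inside the range of Pear1-/- bleo. It rose 1.22-fold with bleo in WT (0.28, SE 0.08, adjusted p = 0.00571), by 0.45 without WT vehicle replicate 2 and by 0.11 (adjusted p = 0.237) with that library alone. The difference between the bleo groups was 0.01, with a 95% interval of -0.18 to 0.19.

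*Srxn1* (ENSMUSG00000032802, chr2:152105516-152111376, plus strand), sulfiredoxin, which rescues peroxiredoxins oxidized too far, had 227, 197 and 193 normalized counts in WT vehicle, 234, 239 and 253 in Pear1-/- vehicle, 280.1, 242 and 256 in WT bleo and 165, 186 and 193 in Pear1-/- bleo. The groups moved apart in opposite directions, with WT bleo above WT vehicle and Pear1-/- bleo below Pear1-/- vehicle, and no library of either pair overlapped. *Srxn1* rose 1.27-fold with bleo in WT (0.35, SE 0.09, adjusted p = 0.00419), fell 1.33-fold in Pear1-/- (-0.41, SE 0.09, adjusted p = 0.00138), and was 1.45-fold lower in Pear1-/- bleo than in WT bleo (-0.53, SE 0.09, adjusted p = 0.000257). All 13 alternatives tried for the difference between the bleo groups kept that call.

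*Nqo1* (ENSMUSG00000003849, chr8:107388225-107403206, minus strand), the quinone reductase often read as a gauge of NRF2 activity, went the other way. It had the fewest reads of the 10 genes on average over the libraries, at 72.8, 89.3 and 88.2 normalized counts in WT vehicle, 98.5, 131 and 76.4 in Pear1-/- vehicle, 50.5, 39.8 and 53.7 in WT bleo and 96.8, 90.3 and 111 in Pear1-/- bleo. The 3 WT bleo libraries were the lowest of all 12. *Nqo1* fell 1.72-fold with bleo in WT (-0.79, SE 0.20, adjusted p = 0.00287), gave -0.04 (SE 0.18, adjusted p = 0.835) with bleo in Pear1-/-, and was 2.04-fold higher in Pear1-/- bleo than in WT bleo (1.03, SE 0.19, adjusted p = 0.000462). Its deposited counts in WT bleo were only 39 to 55 reads per library. The difference passed in all 13 alternatives, from 0.90 to 1.10 on the log2 scale, so that it fell under 2-fold without WT bleo replicate 2 or Pear1-/- bleo replicate 3.

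*Hmox1* (ENSMUSG00000005413, chr8:75093621-75100589, plus strand), haem oxygenase 1, which splits haem into biliverdin, iron and carbon monoxide and is also repressed by BACH1, had 463, 637 and 468 normalized counts in WT vehicle, 621, 604 and 583 in Pear1-/- vehicle, 808, 779 and 758 in WT bleo and 691, 726 and 759 in Pear1-/- bleo. All 6 bleo libraries were above all 6 vehicle libraries. On the log2 scale it rose by 0.59 in WT (SE 0.10, adjusted p = 9.63e-05) and by 0.27 in Pear1-/- (SE 0.10, adjusted p = 0.0262), and the second call was lost when any one of the 6 Pear1-/- libraries was left out (adjusted p 0.082 to 0.163). That rise in Pear1-/- passed in 5 of the 12 alternatives tried. The bleo groups overlapped and differed by -0.12 (95% interval -0.35 to 0.10).

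Both superoxide dismutases changed with bleo, in opposite directions. Mitochondrial *Sod2* (ENSMUSG00000006818, chr17:13006846-13040063, plus strand) had 743, 842 and 803 normalized counts in WT vehicle, 855, 848 and 867 in Pear1-/- vehicle, 961, 962 and 997 in WT bleo and 1158, 1116 and 1150.5 in Pear1-/- bleo, so that each bleo group was clear of the vehicle libraries and of the other. It rose 1.23-fold in WT (0.30, SE 0.07, adjusted p = 0.00084) and 1.34-fold in Pear1-/- (0.42, SE 0.06, adjusted p = 5.25e-05). The further 0.22 between the bleo groups (SE 0.06, adjusted p = 0.0123) lost its call when any one of the 6 bleo libraries was left out (adjusted p 0.0779 to 0.129). That difference passed in 6 of the 13 alternatives tried, with an adjusted p of up to 0.135.

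Extracellular *Sod3* (ENSMUSG00000072941, chr5:52363791-52371418, plus strand) was by far the most abundant of the 10 genes and showed the largest fold change among them. Its normalized counts were 16396, 13944 and 15661 in WT vehicle, 13095, 12785 and 14510.3 in Pear1-/- vehicle, 4595, 4472 and 4721 in WT bleo and 4253, 4296 and 4193 in Pear1-/- bleo. Every vehicle library was above every bleo library. *Sod3* fell 3.31-fold in WT (-1.73, SE 0.07, adjusted p = 1.58e-11) and 3.16-fold in Pear1-/- (-1.66, SE 0.07, adjusted p = 3.81e-11), and the bleo groups differed by -0.13 (95% interval -0.29 to 0.03). The sort marker *Pdgfra* was at -1.74 on the log2 scale in WT (SE 0.07, adjusted p = 8.51e-12) and at -0.80 in Pear1-/- (SE 0.07, adjusted p = 7.35e-08), a smaller fall than that of *Sod3* in the libraries labelled Pear1-/-. Its part in the fall of *Sod3* was not tested.

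Ordered by normalized count per kilobase of exon, *Sod3* came first in all 4 groups, at 4102 ± 337 in WT vehicle and 1136 ± 13.9 in Pear1-/- bleo (SD, n = 3), and *Hmox1* second, at 299 ± 56.6 and 414 ± 19.4, with no overlap between them. *Gclc* came last in 3 groups and *Nqo1* last in WT bleo, at 30.9 ± 4.69. Neighbours in this order whose libraries overlapped were *Srxn1* with *Sod2* in all groups but Pear1-/- bleo, *Nqo1* with *Gclm* in both vehicle groups and in Pear1-/- bleo, *Gclm* with *Slc7a11* in both vehicle groups, *Gclc* with *Slc7a11* in WT bleo, and *Txnrd1* with *Gsr* and *Srxn1* with *Gclm* in Pear1-/- bleo.

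Whether bleo acted differently under the 2 labels was tested as an interaction, the log2 change with bleo in Pear1-/- minus that in WT. It passed in 1 of the 10 genes as higher, *Nqo1* (0.74, SE 0.27, adjusted p = 0.0407), and in 3 as lower, *Gclc* (-0.96, SE 0.20, adjusted p = 0.00188), *Slc7a11* (-0.87, SE 0.18, adjusted p = 0.00169) and *Srxn1* (-0.76, SE 0.13, adjusted p = 0.000421), beside 17.9% and 19.1% of all genes. None of the 4 exceeded 2-fold, as 15.7% of all genes did. The 10 genes had a median of -0.13 beside -0.001 over all genes, and 0.01 beside 0.15 when library totals replaced the trimmed scaling. *Gclc*, *Slc7a11* and *Srxn1* passed in all 19 alternatives, and *Nqo1* in 9 of 19. Without WT vehicle replicate 2, *Gclc* and *Slc7a11* were both at -1.18, and with it as the lone WT vehicle library *Slc7a11* was at -0.49 (adjusted p = 0.00134). For *Gsr*, *Sod2* and *Sod3* the difference in response was 0.02 (95% interval -0.27 to 0.31), 0.12 (-0.10 to 0.33) and 0.07 (-0.16 to 0.29).

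The vehicle groups depended on 1 library. For 8 of the 10 genes WT vehicle replicate 2 lay nearer to the mean of Pear1-/- vehicle than to that of the other WT vehicle libraries, the exceptions being *Nqo1* and *Srxn1*. With all 6 libraries the differences in the vehicle comparison ran from -0.19 (*Sod3*, adjusted p = 0.0839) to 0.38 (*Slc7a11*, adjusted p = 0.0721), with a median of 0.21 beside -0.004 over all genes. Scaling by library totals alone changed the split of all genes in that comparison from 149 higher and 635 lower to 131 and 1812. Without WT vehicle replicate 2, 8 genes passed higher in Pear1-/- vehicle and *Sod3* lower, beside 25.5% and 29.7% of all genes, led by *Slc7a11* at 0.69 (SE 0.08, adjusted p = 8.81e-10), *Gclm* at 0.52 (SE 0.09, adjusted p = 1.22e-05) and *Gsr* at 0.49 (SE 0.08, adjusted p = 1.73e-06). Cell type markers passed between the vehicle groups in that fit too, as given with the markers below. In the same fit 7 of the 10 genes rose and 3 fell with bleo in WT, beside 31.7% and 44.7% of all genes. The log2 fold changes there were 0.82 for *Hmox1*, 0.82 for *Gclc*, 0.45 for *Txnrd1*, 0.41 for *Sod2*, 0.38 for *Srxn1*, 0.35 for *Gclm*, 0.18 for *Slc7a11*, -0.24 for *Gsr*, -0.67 for *Nqo1* and -1.73 for *Sod3*. The change of *Gsr* was thus over 1.5 times smaller than with that library. The interaction was higher in 1 gene and lower in 6, beside 20.4% and 26% of all genes, *Hmox1*, *Gclm* and *Txnrd1* being added. The other comparisons do not contrast that library but share its spread in the fit. Without it, 2 genes rose and 5 fell with bleo in Pear1-/-, beside 27.7% and 40.2% of all genes, *Gclc* (-0.36, adjusted p = 0.013) being added, and 4 were higher and 4 lower between the bleo groups, beside 23.3% and 25.9%, *Gclm* (0.18, adjusted p = 0.0474) and *Sod3* (-0.14, adjusted p = 0.0144) being added. With the 6 bleo libraries fitted alone 4 genes were higher and 5 lower, beside 33.1% and 32.8% of all genes, with *Gclm* (0.20), *Hmox1* (-0.12) and *Sod3* (-0.12) added.

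**Figure D3:**
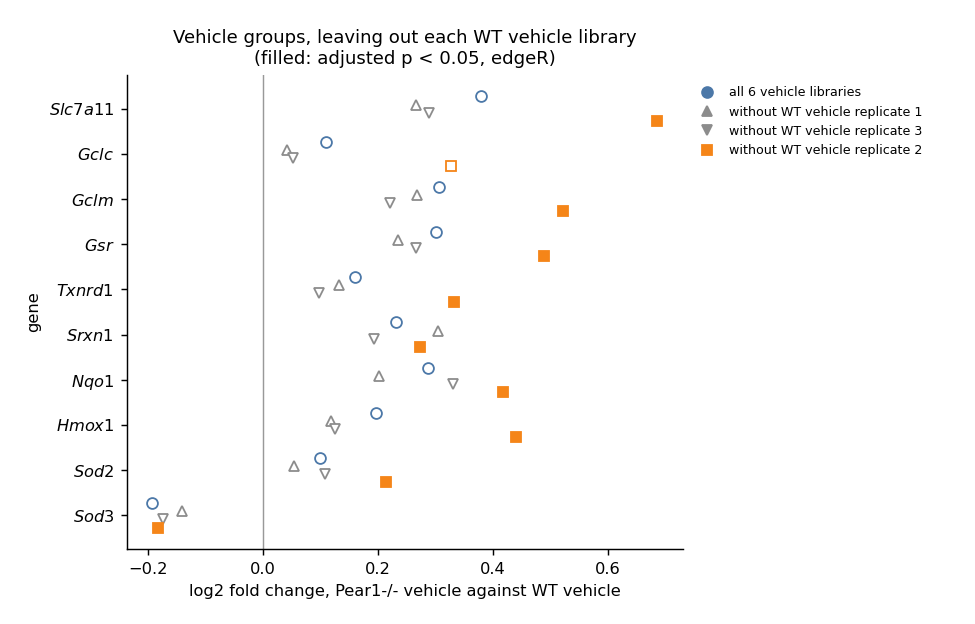
Log2 fold change of the 10 genes in Pear1-/- vehicle against WT vehicle (horizontal axis) with all 6 vehicle libraries and without each WT vehicle library in turn; filled symbols have an adjusted p under 0.05 in edgeR's test. Filled symbols appear only without WT vehicle replicate 2, for 9 of the 10 genes, with Slc7a11 at 0.69.

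The regulators of the pathway were measured beside the targets. *Nfe2l2* had 1837, 2251 and 1902 normalized counts in WT vehicle, 2341, 2362 and 2132 in Pear1-/- vehicle, 4801, 4654 and 4757 in WT bleo and 2839.6, 2751 and 2744 in Pear1-/- bleo. Its RNA rose by 1.26 on the log2 scale with bleo in WT (SE 0.08, adjusted p = 1.66e-09) and by 0.29 in Pear1-/- (SE 0.08, adjusted p = 0.00416), and was 0.78 lower in Pear1-/- bleo than in WT bleo (-0.78, SE 0.08, adjusted p = 8.79e-07). *Bach1*, the repressor, moved the same way, by 1.64 (adjusted p = 1.42e-08), 0.57 (adjusted p = 0.000856) and -0.90 (adjusted p = 8.98e-06). *Keap1*, the inhibitor, gave 0.10 with bleo in WT (adjusted p = 0.273), rose by 0.39 with bleo in Pear1-/- (adjusted p = 0.000454) and was 0.34 higher between the bleo groups (adjusted p = 0.00226). These are RNA levels, whereas NRF2 is controlled mostly as protein. Without WT vehicle replicate 2 the changes with bleo in WT were 1.42 for *Nfe2l2*, 1.79 for *Bach1* and 0.17 for *Keap1* (adjusted p = 0.109), and *Nfe2l2* was 0.35 higher in Pear1-/- vehicle than in WT vehicle (adjusted p = 1.57e-06), against 0.19 (adjusted p = 0.12) with all libraries. Of 10 regulators on the list, 5 rose and 2 fell with bleo in WT, beside 31.4% and 36.6% of all genes, and 4 rose and 4 fell in Pear1-/-, beside 28.9% and 33.4%. In Pear1-/- bleo 2 were higher and 6 lower than in WT bleo, beside 22.1% and 23.9%, among the latter the small MAF gene *Maff* (-1.10, SE 0.13, adjusted p = 4.53e-06).

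Another 99 genes of the pathway were read as lists, of which 93 were tested. With bleo in WT 39 (41.9%) rose and 32 (34.4%) fell, beside 31.4% and 36.6% of all genes, with a median of 0.13 beside -0.07. In Pear1-/- 39 (41.9%) rose and 29 (31.2%) fell, beside 28.9% and 33.4%, with a median of 0.08 beside -0.05. Between the bleo groups 26 (28%) were higher and 35 (37.6%) lower in Pear1-/-, beside 22.1% and 23.9%, with a median of -0.08 beside -0.01. The same all-gene shares are the background of the counts of each list. Between the vehicle groups 0 of the 93 passed in edgeR's test, where 27 had an unadjusted p under 0.05 and DESeq2 passed 5, and the interaction was higher in 21 and lower in 33, beside 17.9% and 19.1% of all genes. Without WT vehicle replicate 2, 96 pathway genes were tested, of which 43 (44.8%) rose and 35 (36.5%) fell with bleo in WT, beside 31.7% and 44.7% of all genes in that fit. Between the vehicle groups 42 (43.8%) were then higher and 10 (10.4%) lower in Pear1-/-, beside 25.5% and 29.7%, and the interaction was higher in 22 (22.9%) and lower in 43 (44.8%), beside 20.4% and 26%. With library totals in place of the trimmed scaling and all 12 libraries, the interaction was higher in 26 and lower in 27 of the 93 (4053 and 2490.0 of all genes), and 6 were lower between the vehicle groups (1812 of all genes). The lists went in different directions. Of 16 glutathione transferases and conjugating genes tested, 12 fell and 1 rose with bleo in WT and 10 fell and 2 rose in Pear1-/-, with *Gstm1* at -2.59 (SE 0.07, adjusted p = 2.9e-13) and -2.98 (SE 0.08, adjusted p = 2.2e-13) on the log2 scale and *Gsta3* at -2.35 in WT (adjusted p = 1.64e-10) and -1.36 in Pear1-/- (adjusted p = 7.04e-08). *Gsto1*, named because it was the lone gene of the list to rise in WT, rose under both labels, by 1.42 (adjusted p = 3.35e-10) and 1.53 (adjusted p = 2.15e-10).

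Of the 6 genes that supply NADPH, 5 rose and 1 fell with bleo under both labels, with medians of 1.04 in WT and 0.60 in Pear1-/-. *Pgd*, of the pentose phosphate pathway, rose by 1.56 (adjusted p = 2.06e-10) and 1.11 (adjusted p = 1.48e-08), and none of the 6 was higher and 4 were lower in Pear1-/- bleo than in WT bleo. Thioredoxins and peroxiredoxins rose in 7 of 14 genes under each label and fell in 4 and 2, with *Prdx1* at 1.35 in WT and 0.98 in Pear1-/-, *Prdx2* at 0.91 and 1.05, and *Txnip*, the inhibitor of thioredoxin, at -0.99 and -1.34 (highest adjusted p of the 6 values 4.76e-07). Glutathione supply and peroxidase genes were split, 5 higher and 7 lower of 16 with bleo in WT and 6 and 5 in Pear1-/-. There *Gpx1*, the cytosolic peroxidase, rose by 1.57 in WT (adjusted p = 4.95e-10) and by 1.05 in Pear1-/- (adjusted p = 7e-08), and *Gpx3*, the secreted one, was at -1.53 (adjusted p = 2.13e-11) and -0.38 (adjusted p = 0.000101). Between the bleo groups 8 of the 16 were higher and 2 lower in Pear1-/-, with *Gpx7* of the endoplasmic reticulum at 1.30 (adjusted p = 4.47e-09), and 4 were lower without WT vehicle replicate 2.

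Among 15 other NRF2 targets, 8 rose and 3 fell with bleo in WT, 8 rose and 2 fell in Pear1-/-, and 3 were higher and 7 lower between the bleo groups. *Aldh3a1*, an aldehyde dehydrogenase, fell under both labels (-1.53, adjusted p = 8.34e-08, and -2.56, adjusted p = 8.39e-10), as did *Osgin1* (-1.44 and -2.10). *Blvrb*, a biliverdin reductase that follows haem oxygenase, rose in WT (1.57, adjusted p = 2.88e-09) and in Pear1-/- (0.63, adjusted p = 6.32e-05), as did the iron exporter *Slc40a1* (1.41, adjusted p = 6.87e-09, and 2.49, adjusted p = 1.18e-11), and *Akr1b8* was higher between the bleo groups (1.07, adjusted p = 6.23e-08). The list of 7 genes that remove superoxide and peroxide had 2 higher and 1 lower in WT (4 and 1 without WT vehicle replicate 2) and 2 of each in Pear1-/-. NADPH oxidases, which make superoxide, rose in 6 and fell in 2 of 9 genes tested in WT, rose in 5 and fell in 3 in Pear1-/-, and between the bleo groups 1 was higher and 6 lower. *Cybb*, the catalytic subunit of the phagocyte oxidase, rose by 2.30 in WT (adjusted p = 2.94e-13) and was at -1.49 between the bleo groups (adjusted p = 1.5e-10). With other scalings (size factors of DESeq2, or library totals) each of these lists kept the sign of its median in all 3 comparisons that involve bleo libraries named here. In the fit without WT vehicle replicate 2, which tested more genes, 4 of 11 NADPH oxidase genes fell with bleo in WT and 6 of 11 in Pear1-/-, where their median was -0.28, and the median of the glutathione transferases between the bleo groups was -0.03.

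**Figure D4:**
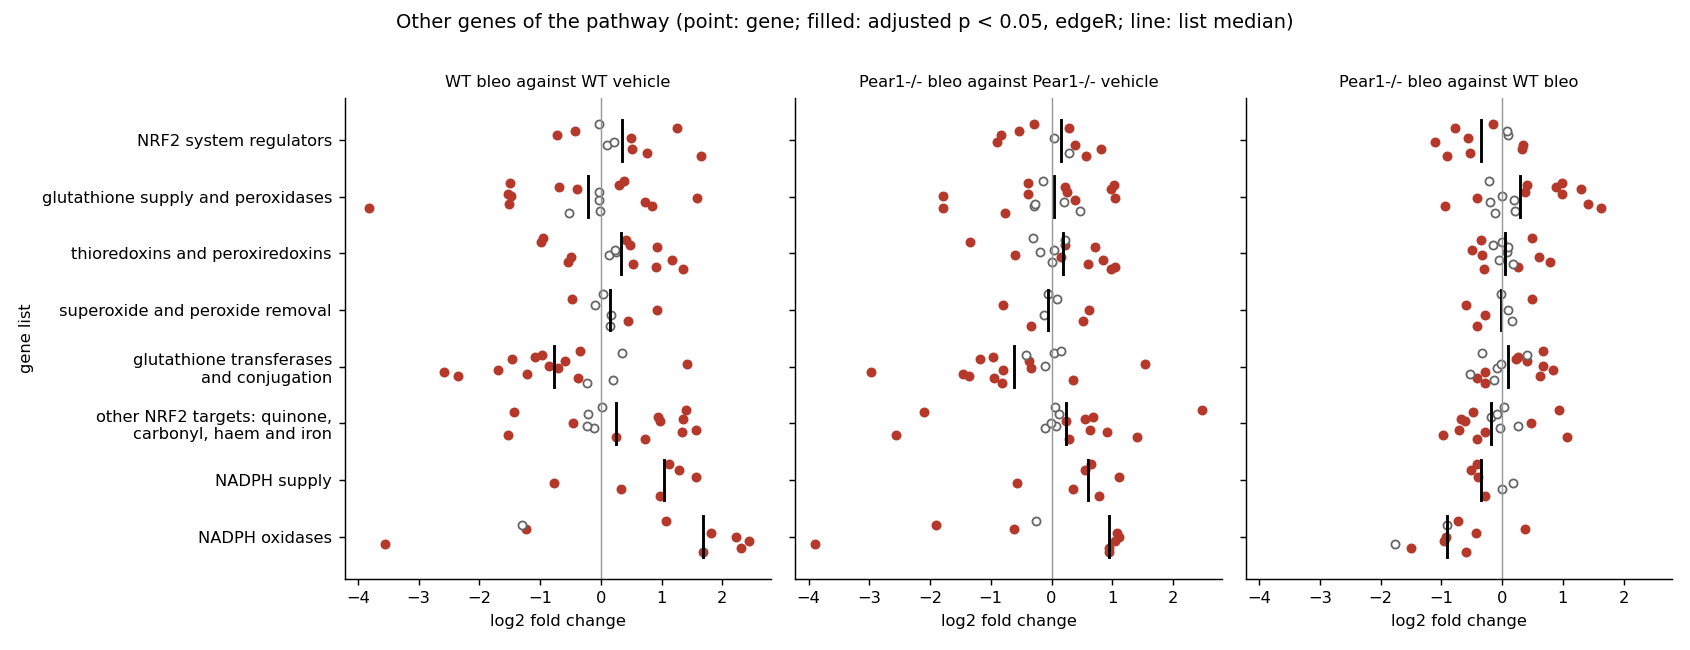
Log2 fold change (horizontal axis) of the 93 other pathway genes tested, by list, in 3 comparisons; each point is a gene, filled where its adjusted p was under 0.05 in edgeR's test, and the black line is the median of the list. Glutathione transferases lie mostly left of 0 in both comparisons of bleo with vehicle, and NADPH supply and NADPH oxidases mostly right of it.

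Cell type markers also differed between the groups. Summed over 15 macrophage and monocyte genes, the level was 24994 to 31092 normalized counts in WT vehicle, 30515 to 31677 in Pear1-/- vehicle, 207790.4 to 209074 in WT bleo and 88342 to 90820.3 in Pear1-/- bleo. Of these genes 14 of 15 rose with bleo in WT, 13 of 15 rose in Pear1-/-, and 13 of 15 were lower in Pear1-/- bleo than in WT bleo. The 12 fibroblast genes summed to 159987 to 174951 in WT vehicle, 173089 to 179889 in Pear1-/- vehicle, 114688 to 115828 in WT bleo and 293691 to 303377 in Pear1-/- bleo. Of these genes 2 rose and 10 fell with bleo in WT, with a median of -1.41, 4 rose and 7 fell in Pear1-/-, with a median of -0.92, and 7 were higher and 1 lower between the bleo groups. The sum is carried by collagens, with *Col1a1* at a mean of 142173 in Pear1-/- bleo and 31524 in Pear1-/- vehicle, whereas *Inmt* (-2.94), *Dcn* (-2.41) and *Col14a1* (-2.13) fell with bleo in Pear1-/-. *Nfe2l2*, *Bach1*, *Gclc*, *Srxn1* and *Slc7a11* were lower in Pear1-/- bleo than in WT bleo, as the macrophage sum was. *Nqo1*, *Gsr* and *Sod2* were higher, as the fibroblast sum was. With 2 groups and 2 sums of opposite order, any gene that differs must go with 1 of the sums, so these matches were fixed in advance. The part of cell types in those differences was not tested. The neutrophil genes, 6 in number, were at 4430.4 to 15492 in WT vehicle, with replicate 2 the highest, 14452 to 18258 in Pear1-/- vehicle, 1492 to 1615 in WT bleo and 2283 to 2341 in Pear1-/- bleo. The 10 epithelial genes were at 42664 to 61071, 57844 to 67153, 16368 to 16567 and 7057 to 7265 in the same order, and the 10 lymphocyte genes at 4427 to 7678, 7599 to 8248, 6553 to 6602 and 4758 to 4883. Endothelial genes (8) were at 4355 to 4914, 4701 to 5209, 2521 to 2693 and 2558 to 2735, smooth muscle and pericyte genes (6) at 4882 to 5023, 4664 to 5205, 3978 to 4025 and 11542 to 11825, and mesothelial genes (4) at 251 to 302, 228 to 259, 71.4 to 85.4 and 117 to 137. No marker of these lists was at 0 in all 3 libraries of a group. Without WT vehicle replicate 2, 6 of 6 neutrophil and 10 of 10 lymphocyte genes passed higher in Pear1-/- vehicle than in WT vehicle. Epithelial genes were 6 higher and 1 lower of 10, endothelial 4 and 0 of 8, macrophage and monocyte 4 and 3 of 15 and fibroblast 5 and 5 of 12. Smooth muscle and pericyte genes were 1 and 2 of 6, mesothelial 0 and 1 of 4 and erythroid 4 and 0 of 5.

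**Figure D5:**
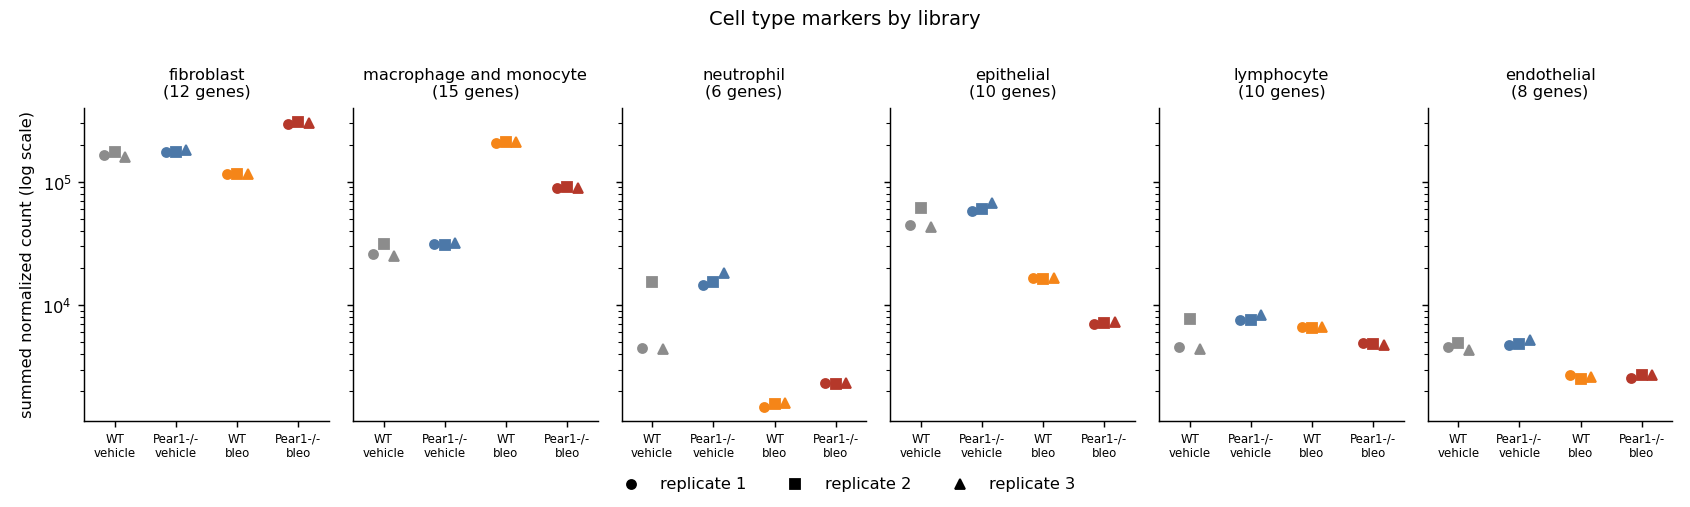
Summed normalized counts of 6 cell type marker lists (vertical axis, log scale) in the 12 libraries; symbols mark replicates 1, 2 and 3 of each group. Macrophage and monocyte genes are highest in WT bleo, at 207790.4 to 209074, the collagen-rich sum of fibroblast genes in Pear1-/- bleo, at 293691 to 303377, and WT vehicle replicate 2 lies with Pear1-/- vehicle for neutrophil genes.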

How the data were processed

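RNA of sorted Pdgfra+ lung cells was made into full-length cDNA (SMART-Seq v4) and sequenced in 12 libraries. The authors aligned reads to GRCm38 with HISAT2 and deposited a count of reads per gene for each library. They also deposited normalized counts, a signal in which each count is divided by a size factor of the library. Per the study's methods, alignments were assigned to the mm10 reference transcriptome. The counting program, the annotation release and the use of strand are not given in the sources used here. Libraries held 6702948 to 10447101 counts.

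Counts were tested with edgeR 4.0.16 (R 4.3.3): TMM scaling, filterByExpr, quasi-likelihood fit over the 4 group means, and Benjamini-Hochberg adjustment over 17418 genes. A gene passed at an adjusted p under 0.05 and was called if it also changed over 2-fold. SE is the size of the log2 fold change divided by the square root of F, and 95% intervals use 8 residual degrees of freedom. An exact permutation test of 3 libraries against 3 cannot go below p = 0.1. Levels are the deposited normalized counts.

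Alternatives were DESeq2 1.42.0, its size factors, library totals, limma 3.58.1 on log2 of normalized counts plus 1, no filter, a replicate block and leaving out each library. A fit with WT vehicle replicate 2 as the lone WT vehicle library (the spread then comes from the other groups), a fit of the 6 bleo libraries alone, comparisons without WT vehicle replicate 2 that do not contrast it, the reading of lists under other settings and the motifs were added after seeing the data. The genes and lists were chosen with earlier results of these data known. All 10 genes and the regulators *Nfe2l2*, *Keap1* and *Bach1* are named; of each list and comparison, up to 3 called genes could be named, those of largest change whose groups did not overlap and whose mean log2 CPM reached 3, with their values under the other label.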

Additional observations from a re-analysis of the deposited data

Results flagged for a closer look

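For 4 of the 10 genes the response to bleo differed between the libraries labelled Pear1-/- and WT in edgeR's test of the interaction, which 17.9% of all genes passed as higher and 19.1% as lower. The difference in log2 change was 0.74 for *Nqo1*, -0.96 for *Gclc*, -0.76 for *Srxn1* and -0.87 for *Slc7a11*. *Nqo1* kept this call in 9 of 19 alternatives and the other 3 genes in all 19.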

How the results depend on the processing

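Of 700 alternative values of single genes, 607 kept direction and side of the threshold, 29 lost a call, 27 gained one and 37 changed sign, none of these 37 having passed as reported. The cause of the changes was not tested. *Nqo1* and *Gclc* had the fewest reads of the 10 genes.

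Leaving out 1 library of the groups compared at a time, the number of the 10 genes that passed was 8 to 10 for WT bleo against WT vehicle (8 as reported), 5 to 6 for Pear1-/- bleo against Pear1-/- vehicle (6), 4 to 5 between the bleo groups (6), 0 to 9 between the vehicle groups (0, with 9 reached without WT vehicle replicate 2) and 3 to 7 for the interaction (4). In the same order, 63.6% to 76.4%, 50.3% to 53.3%, 31.5% to 32%, 0% to 55.2% and 26.1% to 46.4% of all genes passed in those fits. Without WT vehicle replicate 2, which is in neither group, 7 passed for Pear1-/- bleo against Pear1-/- vehicle (68% of all genes) and 8 between the bleo groups (49.2%). Genes also over 2-fold numbered 1, 1 to 2, 0 to 1, 0 and 0 to 2. The share of all genes over 2-fold was not counted in those fits or without the filter. In the fit as reported it was 33.9%, 27.8%, 15%, 2.36% and 15.7%, in the same order. Without the filter 3 genes passed between the vehicle groups (13.8% of all genes) and 1 interaction was over 2-fold, with library totals alone 1 gene passed between the vehicle groups (11.2% of all genes), and with the 6 bleo libraries alone 9 genes passed (66% of all genes). With a replicate block the counts were 8, 7, 6, 0 and 3, beside 67.1%, 61.4%, 44.7%, 4.04% and 35.3% of all genes. Same-numbered libraries deviated together in no regular way (correlations -0.29 to 0.18). These are deviations from means of 3 libraries, so the check cannot exclude a pairing or a shared batch. Over the genes tested in both fits, the median shifted by 0.13 without the filter (WT bleo), by -0.15 (vehicle) and 0.15 (interaction) with library totals, and by -0.11 (interaction) without WT vehicle replicate 2, where the median over all genes of that fit was 0.0086. With library totals 4053 genes were higher and 2490.0 lower in the interaction, against 3110 and 3332.

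With WT vehicle replicate 2 as the lone WT vehicle library, values that changed sign were *Gclm* with bleo in WT (-0.0891), *Hmox1* (-0.0807), *Gclc* (-0.117) and *Txnrd1* (-0.015) between the vehicle groups, and *Gclm* (0.131), *Txnrd1* (0.0392) and *Sod3* (-0.0581) in the interaction. With library totals they were *Nqo1* with bleo in Pear1-/- (0.0096), *Gclc* (-0.0291) and *Sod2* (-0.0481) between the vehicle groups, and *Gclm* in the interaction (0.0299). Without the filter they were *Slc7a11* with bleo in WT (0.0067), *Nqo1* with bleo in Pear1-/- (0.0057), and *Gsr* (-0.0574) and *Sod3* (-0.0202) in the interaction. Leaving out 1 library at a time, values spanned 0 for *Slc7a11* with bleo in WT (-0.222 without WT vehicle replicate 1 to 0.183 without replicate 2), for *Nqo1* (-0.219 to 0.158) and *Gclm* (-0.0676 to 0.0876) with bleo in Pear1-/-, for *Txnrd1* between the bleo groups (-0.0159 to 0.0234), and for *Gsr* (-0.179 to 0.0836), *Sod2* (-0.0074 to 0.161) and *Sod3* (-0.0335 to 0.0688) in the interaction.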
